A study of Mus musculus with 5 samples.

Results

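Chemokine ligands are small secreted proteins that guide migrating cells by binding receptors on the surface of those cells. Their RNA was measured here in mouse embryonic fibroblasts (MEFs) kept in 5C medium, which converts MEFs to neuron-like cells. The 10 ligands described were Ccl2, Ccl6, Ccl7, Ccl9, Ccl11, Cxcl1, Cxcl5, Cxcl10, Cxcl12 and Cxcl14. They were chosen by name, with earlier results of these data known, among 27729 genes with a row in each library. They comprised 5 CC ligands, in which the first pair of conserved cysteines stands side by side, and 5 CXC ligands, in which 1 residue separates them. All 10 reached 10 expected counts, the read numbers estimated for each gene, in at least 1 library. Of 28 other chemokine ligands with a row, 10 did.

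As background, most chemokine ligands are made on demand. Inflammatory signals acting through NF-kB switch on ligands such as Ccl2, Cxcl1 and Cxcl5, and interferons switch on Cxcl10. Cxcl12 is a homeostatic ligand that stromal fibroblasts produce without such a stimulus, and with its receptor Cxcr4 it guides migrating neurons and blood stem cells. CC ligands mainly attract monocytes and eosinophils, while CXC ligands with the residues ELR before the cysteines attract neutrophils.

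The 5 libraries held RNA of MEFs of the ICR strain, 1 library each from day 0 in serum-containing MEF medium and from days 2, 5, 10 and 14 after the change to 5C medium. The MEFs came from mid-gestation embryos without head and internal organs, and 5C is a serum-free medium of DMEM/F12 with N2, bFGF, LIF, vitamin C and 2-mercaptoethanol. The labels call the medium 6C, and their treatment text names a last day later than the day 14 of the last library's own label. Every culture after day 0 was in 5C medium, so effects of the medium, of the loss of serum and of time in culture cannot be told apart. MEFs are a mixed primary culture, and the cells before and after conversion were lysed together, so fewer cells of a type and less RNA per cell cannot be told apart either.

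The libraries held between 2253748 (day 2) and 3890334 (day 0) expected counts. The rRNA-overlapping transcript Gm42418 took 4.79% of the counts on day 2 and at most 0.109% in the other libraries. The fibroblast label was checked against 11 defining markers, among them Col1a1, Col3a1, Dcn and Vim, and all 11 were measured, with summed TPM between 5003 on day 2 and 27177 on day 14. With 1 library per time point there was no replicate error and no test. The intervals given are 95% exact Clopper-Pearson intervals that cover counting error only, and calls are changes over 2-fold.

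The CC genes lie in clusters on chromosome 11 (GRCm38). Ccl2, Ccl7 and Ccl11 share a stretch of 81.2 kb with Ccl12 and Ccl8 (chr11:82035571-82116799), and Ccl9 and Ccl6 lie next to each other within 20.2 kb (chr11:83572919-83593087, minus strand). Cxcl5 and Cxcl1 lie within 134 kb on chromosome 5 (chr5:90759360-90893115), and Cxcl10 lies on the same chromosome (chr5:92346638-92348889, minus strand). Cxcl12 is on chromosome 6 (chr6:117168535-117181367) and Cxcl14 on chromosome 13 (chr13:56288643-56296551, minus strand). All 10 are annotated as protein-coding.

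RefSeq promoter sequences (GRCm38.p6), each from 250 bases before to 50 bases after the start of the gene, were at hand for 6 of the 10 ligands, namely Cxcl1, Cxcl10, Cxcl12, Ccl9, Ccl6 and Cxcl14. The promoters of Cxcl1 and Cxcl10 are shown because they hold most of the searched letters, and that of Cxcl14 because its RNA went the other way. Capitals mark the NF-kB letters (GGG, any 5 bases, then CC) and the interferon element letters (GAAA, any 2 bases, then GAAA) on either strand.
Cxcl1 (chr5:90890995-90891294, plus strand): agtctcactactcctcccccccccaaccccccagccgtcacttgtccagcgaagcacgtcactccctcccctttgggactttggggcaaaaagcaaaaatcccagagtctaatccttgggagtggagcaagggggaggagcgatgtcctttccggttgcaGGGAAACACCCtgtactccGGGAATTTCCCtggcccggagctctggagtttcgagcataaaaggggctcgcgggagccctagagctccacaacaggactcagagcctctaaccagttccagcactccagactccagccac
Cxcl10 (chr5:92348840-92349139, minus strand): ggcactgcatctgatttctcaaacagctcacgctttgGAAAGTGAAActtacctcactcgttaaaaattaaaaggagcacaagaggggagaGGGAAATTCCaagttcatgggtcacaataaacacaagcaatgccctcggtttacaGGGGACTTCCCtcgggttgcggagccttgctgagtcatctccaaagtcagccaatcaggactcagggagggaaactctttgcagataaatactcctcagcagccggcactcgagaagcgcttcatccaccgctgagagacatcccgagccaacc
Cxcl14 (chr13:56296502-56296801, minus strand): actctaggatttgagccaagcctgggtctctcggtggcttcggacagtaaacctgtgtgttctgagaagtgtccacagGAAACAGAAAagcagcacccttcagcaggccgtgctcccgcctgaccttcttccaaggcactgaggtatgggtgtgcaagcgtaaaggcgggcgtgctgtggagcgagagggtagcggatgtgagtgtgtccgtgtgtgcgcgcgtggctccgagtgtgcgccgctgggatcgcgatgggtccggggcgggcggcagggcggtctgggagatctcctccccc

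The NF-kB letters were found 4 times in the Cxcl1 promoter, in overlapping pairs, and 3 times in the Cxcl10 promoter. They were found 1 time each in the promoters of Cxcl12 and Ccl9, and not in these windows of Ccl6 and Cxcl14. These loose letters occurred in 50.8% of 32851 promoters of the same length. A narrower NF-kB consensus, chosen after that share was seen, occurred in 4.51% of all promoters and in those of Cxcl1, Cxcl10 and Ccl9. The interferon element letters occurred in 3.44% of all promoters, and of the 6 ligands in those of Cxcl10 and Cxcl14. A match describes letters only, and no binding was measured.

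Most of the ligands had more RNA in 5C medium than on day 0, and Cxcl14 had less at every later day. On day 2, 6 of 10 ligands were over 2-fold above day 0 (Ccl6, Ccl7, Ccl9, Ccl11, Cxcl1 and Cxcl5), beside 15.2% of the 13346 genes that reached 10 expected counts in any library. Cxcl14 alone was over 2-fold below, beside 13.1% of those genes. On day 5, 7 ligands were above (Ccl2, Ccl6, Ccl9, Ccl11, Cxcl1, Cxcl5 and Cxcl10), beside 20.2% of genes, and Cxcl14 was below, beside 13.6%. On day 10, 7 were above (Ccl6, Ccl9, Ccl11, Cxcl1, Cxcl5, Cxcl10 and Cxcl12), beside 28.7% of genes, and Ccl7 and Cxcl14 were below, beside 22.3%. On day 14 these 7 were again above, beside 24.5%, and Cxcl14 was below, beside 19.9%.

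The median log2 change of the 10 ligands was 1.65, 2.61, 2.80 and 2.64 on days 2, 5, 10 and 14, beside -0.03, 0.05, 0.14 and 0.07 over all genes. Ccl6 and Ccl11 had 0 counts on day 0, and with both set to the bound that a floor of 3 counts allows the medians were 1.55, 2.61, 2.38 and 2.27. Because the ligands were chosen with earlier results of these data known, the values over all genes beside them are no test of the set. A ligand near 0 on day 0 could enter only by being higher later, and 4 ligands had under 10 counts on day 0 (Ccl6, Ccl9, Ccl11 and Cxcl10). Of the other 6, 3 were over 2-fold above day 0 on each of the 4 days, and 1, 1, 2 and 1 were below on days 2, 5, 10 and 14.

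**Figure D1:**
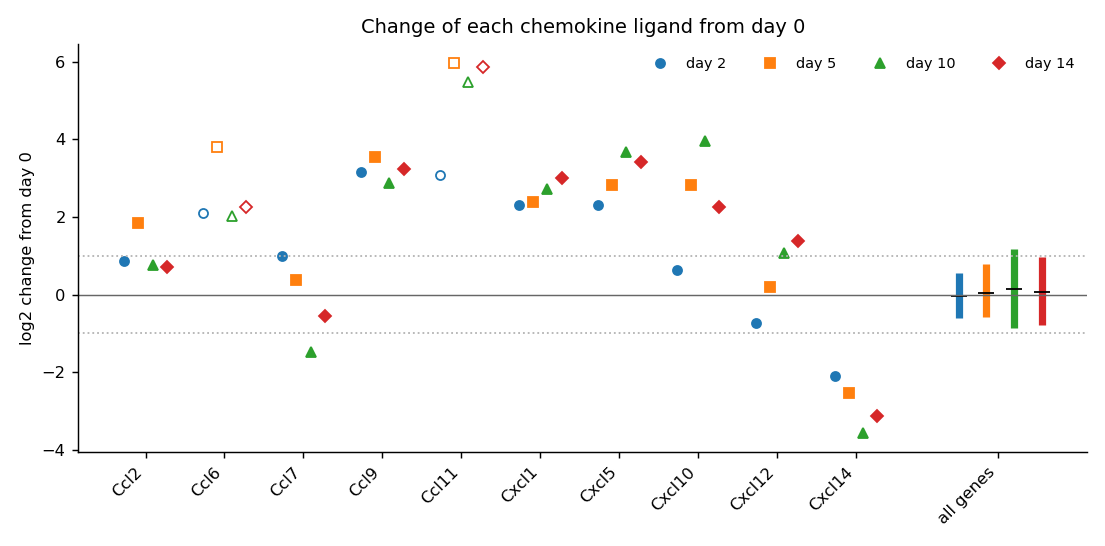
Log2 change from day 0 of each chemokine ligand on days 2, 5, 10 and 14 (coloured symbols), with 1 library per day. Open symbols for Ccl6 and Ccl11, which had 0 counts on day 0, are lower bounds against 3 counts, dotted lines mark 2-fold, and the bars at the right give the quartiles and median of all 13346 genes. Cxcl14 was over 2-fold below day 0 on all 4 days and Cxcl1, Cxcl5, Ccl6, Ccl9 and Ccl11 over 2-fold above it on all 4.

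The monocyte-attracting CC ligands Ccl2 and Ccl7, which both act on Ccr2, were well measured before the change of medium and were highest early. In the libraries of days 0, 2, 5, 10 and then 14, Ccl2 had 196, 358, 711, 333 and 324 normalized counts, where normalized counts are expected counts scaled to a common library size. Its day 5 library thus stood above the other 4. Against day 0 this was 3.63-fold on day 5 (interval 3.1 to 4.26) and between 1.66-fold and 1.83-fold on the other days. On days 10 and 14 the log2 changes of 0.76 and 0.72 became 1.23 and 1.08 with total counts and 1.85 and 1.48 with TPM, both over 2-fold. From day 5 to day 10 its log2 change was -1.09 (-1.26 to -0.93).

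Ccl7 had 298, 599, 385, 107 and 204 normalized counts in the same order of days. On this scale Ccl7 was highest on day 2, earlier than its neighbour Ccl2, and lowest on day 10. On TPM it was highest on day 5, as was Ccl2, with 281 TPM against 227 on day 2. The day 2 level was 2.01-fold that of day 0 (1.71 to 2.36), an interval that spans the 2-fold threshold, and the log2 change was 1.00 on counts and 0.76 on TPM. On day 10 the level was 0.357 of that on day 0 (0.292 to 0.436), a log2 change of -1.47 that was -0.33 on TPM and then not over 2-fold, and by day 14 it was 1.92-fold that of day 10 (1.55 to 2.37).

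Ccl11, or eotaxin, which attracts eosinophils through Ccr3, had no counts on day 0 and was measured in every later library. From the day 0 to the day 14 library it had 0, 25.3, 187, 132 and 172 normalized counts. Its expected counts in the same order were 0, 14, 214, 185 and 193. Counted against a floor of 3 counts in the day 0 library, it was at least 8.53-fold higher on day 2 and at least 63.1-fold, 44.5-fold and 58.1-fold higher on days 5, 10 and 14, taking the later counts as exact. The lower limits of the counting intervals of these ratios were 6.06, 50.9, 35.8 and 46.8. The step from day 2 to day 5 alone was 7.39-fold (4.31 to 13.8), while the later steps were 0.705-fold and 1.31-fold.

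Ccl6 and Ccl9, which act on Ccr1 and are products of myeloid cells, were scarce throughout. Ccl6 had 0, 12.7, 41.1, 12.1 and 14.3 normalized counts in the order of days, highest on day 5. Against the floor of 3 counts this was at least 4.27-fold, 13.9-fold, 4.09-fold and 4.82-fold higher than day 0, with the later counts taken as exact, and the lower limits of the counting intervals were 2.63, 10.8, 2.98 and 3.48. From day 5 to day 10 the level was 0.295-fold (0.159 to 0.524). Ccl9 had 2.97, 34.6, 45, 28.2 and 36.6 normalized counts, so its 4 later libraries lay between 28.2 and 45. With only 3 counts on day 0, its ratio to day 0 was 15 on day 5, with an interval from 4.86 to 75.3. The estimated length of Ccl9 ranged from 1076 to 3006 bases between libraries as RSEM shifted its reads among transcripts, so its TPM went from 3.37 on day 2 to 21.7 on day 5 while its count ratio over this step was 1.3 (0.753 to 2.33).

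Cxcl1 and Cxcl5 are neutrophil-attracting ligands of Cxcr2, and on normalized counts both stood above day 0 by over 4-fold in all later libraries. On day 2 their counting intervals began at 3.11 and 3.16, and their log2 changes on TPM were 1.97 and 1.90, under 4-fold. Cxcl1 had 22.8, 116, 123, 156 and 190 normalized counts in the order of days. The later libraries were 5.09-fold (3.11 to 8.59), 5.42-fold (3.47 to 8.83), 6.87-fold (4.46 to 11.1) and 8.36-fold (5.43 to 13.5) above day 0. Much of the difference was present by day 2, and the interval of the step from day 2 to day 5 included no change (1.07-fold, 0.788 to 1.46).

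Cxcl5 had 23.8, 121, 176, 317 and 267 normalized counts in the same order. It was highest on day 10, at 13.3-fold the day 0 level (8.86 to 21.1), and was 11.2-fold (7.39 to 17.8) on day 14. Of all pairs of the 10 ligands, Cxcl1 and Cxcl5 had the most alike profiles, with a distance of 0.79 between their centred log2 values over the 5 libraries. Both promoters lie in the same cluster, and the Cxcl5 promoter was not analysed here. Neighbours in a cluster were not alike throughout, with a distance of 2.03 between Ccl2 and Ccl7 but 5.50 between Ccl2 and Ccl11.

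Cxcl10, the interferon-induced ligand of Cxcr3, was highest on day 10. Its expected counts were 2, 2, 23, 64 and 15 in the order of days, and its normalized counts were 1.98, 3.62, 20.1, 45.7 and 13.4. The ratio of day 10 to day 0 was 23.1, with an interval from 6.14 to 195, since day 0 held 2 counts. From day 10 to day 14 the level was 0.293-fold (0.155 to 0.521), the lowest ratio of any of the 10 ligands over this step. Art3, encoded on the opposite strand, shares 133 of the 2252 annotated exon bases of Cxcl10, and the library kit does not mark strand, so reads in the shared bases cannot be told apart. Art3 had 0, 0, 10, 78 and 52 expected counts, and its part in the Cxcl10 values was not tested. The estimated length of Cxcl10 was 1094 bases to day 5 but 761 on day 10 and 911 on day 14, which raises its TPM on those days.

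Cxcl12, the ligand of Cxcr4 and Ackr3, was the most counted of the 10 in every library except on day 2. Its normalized counts were 789, 470, 914, 1662 and 2059 in the order of days. The day 2 library was the lowest, at 0.596 of the day 0 level (0.516 to 0.687), and days 10 and 14 were the highest, at 2.11-fold (1.94 to 2.29) and 2.61-fold (2.41 to 2.83). The interval for day 10 spans the 2-fold threshold.

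Cxcl14, a CXC ligand without the ELR residues that skin and other epithelia produce, was the 1 ligand highest on day 0. It had 510 normalized counts there, and 119, 88.4, 42 and 57.2 in the later libraries. No later library came near the day 0 level, and the ratios to day 0 were 0.234 (0.178 to 0.303), 0.173 (0.138 to 0.215), 0.0825 (0.0619 to 0.108) and 0.112 (0.085 to 0.145). On days 5, 10 and 14 the log2 changes of -2.52, -3.57 and -3.13 were smaller on TPM, at -1.79, -2.37 and -2.23, still over 2-fold.

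**Figure D2:**
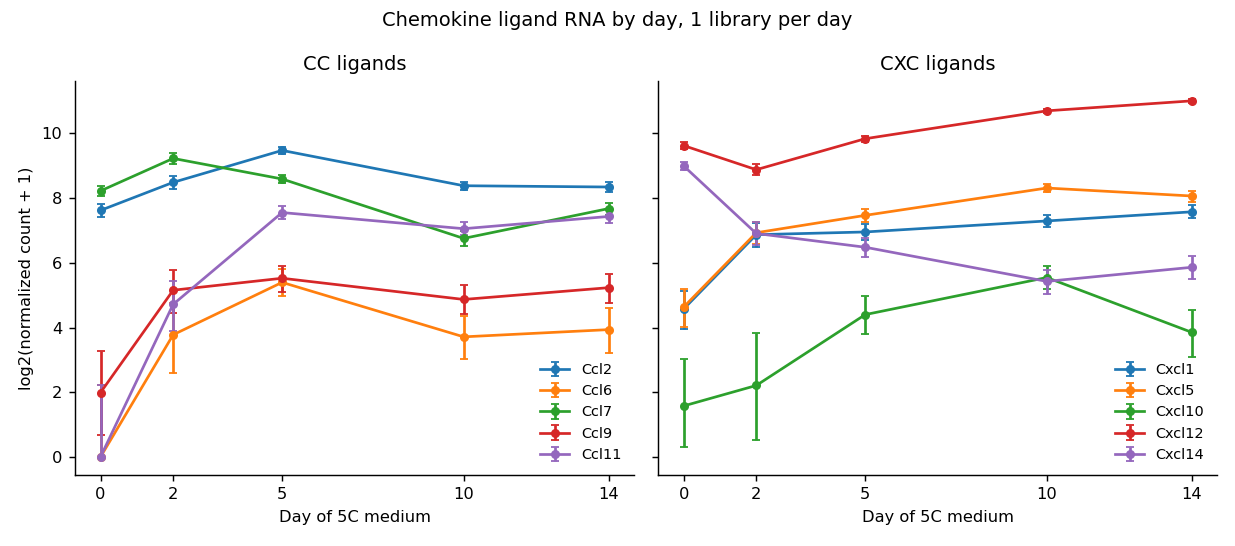
Normalized counts of the CC ligands (left) and CXC ligands (right) by day of 5C medium, as log2 of the value plus 1, with 1 library per day and bars for 95% counting intervals. On this scale Ccl2, Ccl6, Ccl9 and Ccl11 were highest on day 5, Cxcl5 and Cxcl10 on day 10, and Cxcl12 and Cxcl1 on day 14, while Cxcl14 was highest on day 0.

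By the day of the highest normalized count, the ligands divided into Cxcl14 (day 0), Ccl7 (day 2), the 4 ligands Ccl2, Ccl6, Ccl9 and Ccl11 (day 5), Cxcl5 and Cxcl10 (day 10), and Cxcl1 and Cxcl12 (day 14). On normalized counts all the CC ligands were thus highest on day 2 or 5 and no CXC ligand was. The day 5 and day 14 counting intervals of Ccl9 and of Ccl11 overlapped, however, and on TPM both were highest on day 14, with 22.3 against 21.7 for Ccl9 and 104 against 100 for Ccl11. Ccl7 was highest on day 5 on TPM, with 281 against 227 on day 2. The 5 CC ligands together made up 129 (118 to 141), 253 (232 to 274), 461 (439 to 485), 221 (206 to 236) and 250 (233 to 267) counts per 1000000 in the order of days. The 5 CXC ligands made up 350 (332 to 369), 204 (185 to 223), 445 (423 to 468), 801 (774 to 830) and 861 (830 to 893) in the same order. These shares follow each sum over time and do not compare the groups, whose genes differ in length. Per length, the CC ligands summed to 221, 374, 929, 537 and 541 TPM and the CXC ligands to 235, 146, 424, 953 and 891 TPM, so the CC sum was the higher on days 2 and 5 and the lower on days 10 and 14. With the TMM scaling used for single ligands, the log2 change of the CC sum from day 0 was 1.05, 1.46, 0.30 and 0.60 on days 2, 5, 10 and 14, and that of the CXC sum was -0.70, -0.03 (-0.13 to 0.08), 0.72 and 0.94. The rise of the CXC share on day 5 was thus absent on that scale.

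Cxcl12 carried most of the late CXC sum. Without Cxcl12 the other 9 ligands held 274, 341, 599, 423 and 426 counts per 1000000 in the order of days, highest on day 5, whereas all 10 held 479, 456, 907, 1022 and 1111, highest on day 14. With TMM scaling the log2 change of all 10 summed was 0.01, 0.55, 0.62 and 0.86 on days 2, 5, 10 and 14.

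**Figure D3:**
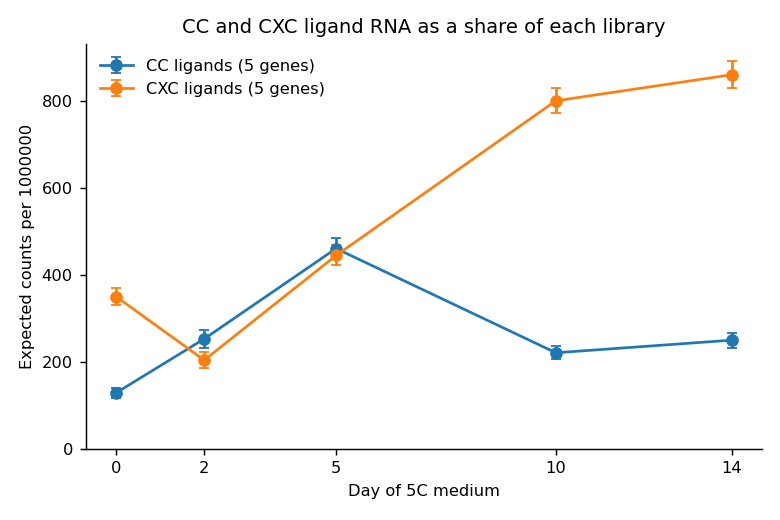
Summed expected counts of the 5 CC and the 5 CXC ligands per 1000000 counts of each library by day of 5C medium, with 95% exact counting intervals and 1 library per day. The CC sum was highest on day 5 at 461, and the CXC sum was lowest on day 2 at 204 and highest on day 14 at 861.

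Levels between genes were compared per length, as TPM. On this scale Ccl7 led on day 0, with 134 TPM, followed by Cxcl12 with 122, whose counting intervals overlapped. Ccl7 also led on day 2 with 227 TPM, or 43.7% of the summed TPM of the 10 ligands, and Ccl2 led on day 5 with 502 TPM (37.1%). Cxcl12 led on day 10 with 604 TPM (40.5%) and on day 14 with 627 TPM (43.8%), and Ccl2 was second on both days, with 313 and 242 TPM. On days 2, 5, 10 and 14 the interval of the leading ligand did not overlap that of the second. The order below was less certain, and on day 14 Cxcl1 (130 TPM), Cxcl5 (104) and Ccl11 (104) each overlapped their neighbour in the order.

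Cxcl14 made up 21.7% of the ligand TPM on day 0 and between 1.23% and 3.71% later. Ccl11 made up 0% on day 0, 1.34% on day 2, and between 6.51% and 7.41% from day 5. Cxcl1 and Cxcl5 together were minor on day 0, with 1.87% and 1.11%, and reached 8.75% and 10.2% on day 10. Cxcl10, at most 3.23% on day 10, and Ccl6 and Ccl9, at most 1.85% and 1.6% on day 5, were a small part of the ligand RNA.

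**Figure D4:**
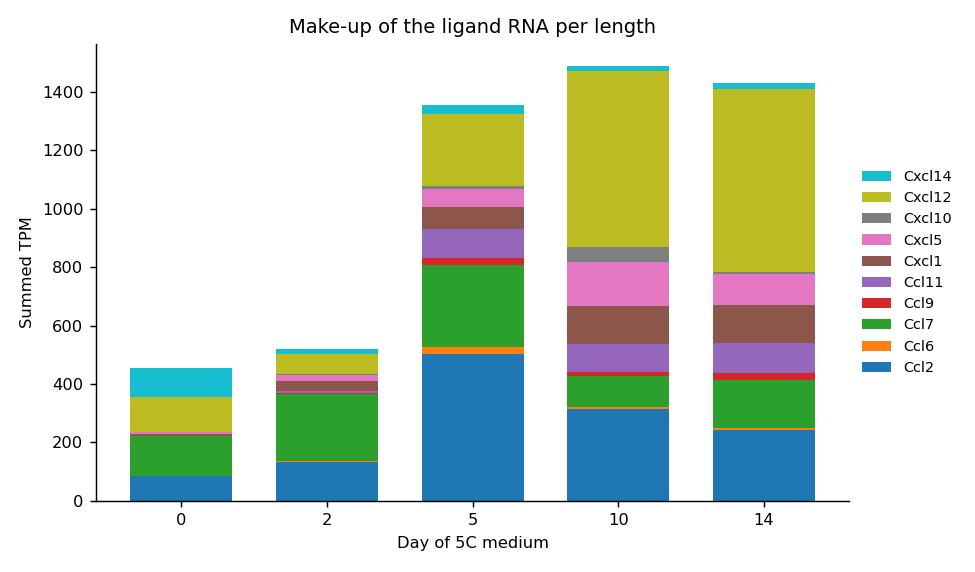
Summed TPM of the 10 ligands by day of 5C medium, stacked by gene, with 1 library per day. In the order of days the sums were 456, 520, 1353, 1491 and 1433, and the largest part passed from Ccl7 (days 0 and 2) to Ccl2 (day 5) and Cxcl12 (days 10 and 14).

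TPM moved the median log2 change of all genes from -0.03, 0.05, 0.14 and 0.07 on counts to -0.20, 0.61, 1.09 and 0.78 on days 2, 5, 10 and 14. After subtracting each scale's own median, all 40 ligand changes from day 0 had the same sign on both scales. Before that, 39 of 40 did, the exception being Ccl7 on day 14 with -0.55 on counts and 0.31 on TPM. On day 5, Ccl7 and Cxcl12 passed 2-fold on TPM alone, with log2 changes of 1.06 and 1.02 against 0.37 and 0.21 on counts.

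Counts of called genes in the lists that follow are to be read beside the background shares of all genes, 15.2%, 20.2%, 28.7% and 24.5% above day 0 and 13.1%, 13.6%, 22.3% and 19.9% below on days 2, 5, 10 and 14. Of 28 other chemokine ligands with a row, 10 reached 10 counts in any library. Of these 10, 6, 8, 5 and 5 were over 2-fold above day 0 on days 2, 5, 10 and 14 and 0, 1, 1 and 1 were below, with a median log2 change of 2.39, 2.56, 1.45 and 1.91. With genes at 0 counts set to their bound the medians were 2.31, 2.46, 0.80 and 1.27. Ccl8, a CC ligand from the same stretch of chromosome 11 as Ccl11, had 0, 188, 358, 268 and 265 normalized counts, and was at least 63.4-fold higher on day 2 and at least 121-fold higher on day 5 than day 0. Ccl12, from this stretch too and like Ccl2 a ligand of Ccr2, had 0, 18.1, 40.3, 17.1 and 16.1. Ccl11, Ccl12 and Ccl8 thus all stood at 0 counts on day 0, while Ccl2 and Ccl7, in the same 81.2 kb, had 198 and 301 expected counts.

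Cx3cl1, a membrane-bound chemokine that acts on microglia and monocytes, had 14.8, 85, 213, 89.3 and 115 normalized counts, and was 14.3-fold above day 0 on day 5 (8.51 to 26). Ccl27a had 50.9 normalized counts on day 0 and 11.2 on day 10. The monocyte and macrophage products Ccl3, Ccl4 and Ccl5 had at most 18.4, 9.05 and 21.7 normalized counts. Cxcl13, a B cell attractant, was highest on day 14 with 18.8, Cxcl16 had between 22.8 and 47.3, and Ccl25 had between 5.43 and 14.3.

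The signalling receptors of these ligands were at or near the limit of detection. Of 18 chemokine receptors, 2 had 10 or more counts in any library, namely Cxcr2 with at most 12.4 expected counts and Cxcr4 with at most 10. Of these 2, 1, 1, 0 and 1 were over 2-fold above day 0 on days 2, 5, 10 and 14, and 0, 0, 1 and 0 were below. Ccr1 had at most 7 expected counts, Ccr2 at most 6, and Ccr3 and Cxcr3 at most 1. At these depths 3 counts correspond to between 0.771 and 1.33 per 1000000, so differences among these receptors were not detectable.

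Atypical receptors are a class that binds chemokines without signalling through G proteins, and some of them remove the ligand. Of the 5 listed, 3 were kept, of which 0, 2, 2 and 2 were over 2-fold above day 0 and none below. Ackr3, which takes up Cxcl12, was the best measured, with 89.4, 56.1, 62.1, 79.3 and 82.2 normalized counts in the order of days. None of its 4 changes from day 0 passed 2-fold, while its ligand Cxcl12 did on days 10 and 14. Ackr1 and Ackr4 had at most 12 and 16.5 expected counts, and Ackr2 had 0 in every library.

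Of 4 proteases that cleave chemokines, 0, 3, 4 and 1 were over 2-fold above day 0 on days 2, 5, 10 and 14 and 0, 0, 0 and 1 were below. Mmp2, which trims the N terminus of Cxcl12 and Ccl7, had 955, 1795, 5770, 9067 and 14494 normalized counts, 15.2-fold (14.2 to 16.2) above day 0 on day 14. Its membrane-anchored activator Mmp14 had 1197, 798, 2481, 2624 and 2310. Dpp4, which also trims chemokines, had 4, 1, 10, 13 and 7 expected counts, and Mmp9 had 2, 1, 21, 9 and 0. The calls of Dpp4 and Mmp9 thus rest on few counts, and the 1 protease below on day 14 was Mmp9.

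Ccl6 and Ccl9 were read beside macrophage markers, since both are made by myeloid cells. Of 19 macrophage markers 18 were kept, and 18, 17, 15 and 14 of these were over 2-fold above day 0 on days 2, 5, 10 and 14, while Itgam alone was below on days 5, 10 and 14. The median log2 change was 2.43, 3.23, 2.57 and 2.48, or 2.43, 3.23, 2.39 and 2.44 with Ptprc, which had 0 counts on day 0, at its bound. The summed TPM of the 19 markers was 83.2, 641, 1957, 1415 and 885 in the order of days. This sum was highest on day 5, as were Ccl2, Ccl6 and Ccl7 on the same scale, while Ccl9 had 21.7 TPM on day 5 and 22.3 on day 14. Lyz2, encoding lysozyme, had 30.3, 276 and 1252 TPM in the first 3 libraries, and so made up most of the day 5 sum. On TPM, Cd68, Tyrobp, Fcer1g, Fcgr3, C1qa, C1qb and C1qc were also highest on day 5. Adgre1, Mrc1, Laptm5 and Cd14 were highest on day 10 on this scale, and Mertk on day 14. The macrophage genes Adgre1 and Mrc1 had 62.1 and 104 normalized counts on day 5 against 2.97 and 1.98 on day 0. Both were higher still on day 10, with 72.6 and 124. Laptm5 and C1qb had 215 and 121 normalized counts on day 5 against 9.9 and 6.93 on day 0. Ptprc, the pan-leukocyte gene, had 0, 1, 8, 22 and 4 expected counts. The part of these cells in the ligand values was not tested.

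Markers of other leukocytes were scarce. Summed TPM was at most 19.8 for 5 neutrophil markers, 3.39 for 4 mast cell markers and 3.06 for 4 T cell markers, with 4, 4 and 3 of these genes at 0 on day 0. The numbers kept were 1, 0 and 1.

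Cxcl10 was read beside interferon genes. Of 21 interferon ligands, receptors and response genes with a row 19 were kept, of which 8, 13, 14 and 14 were over 2-fold above day 0 on days 2, 5, 10 and 14 and none below, with a median log2 change of 0.74, 1.60, 2.24 and 1.96. The antiviral gene Ifit3 had 27.9, 216, 279, 531 and 363 normalized counts, Ifit1 15.8, 156, 141, 245 and 162, and Oasl2 18.8, 103, 228, 318 and 196. Gbp3 had 8.85, 23.5, 81.4, 217 and 173, and Ifit2 had 16.8, 14.5, 71.8, 178 and 126. All 5 were highest on day 10, the day of highest Cxcl10. Ifnb1 and Ifng, which encode interferons, had 0 counts in every library. The part of this list in the Cxcl10 values was not tested.

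**Figure D5:**
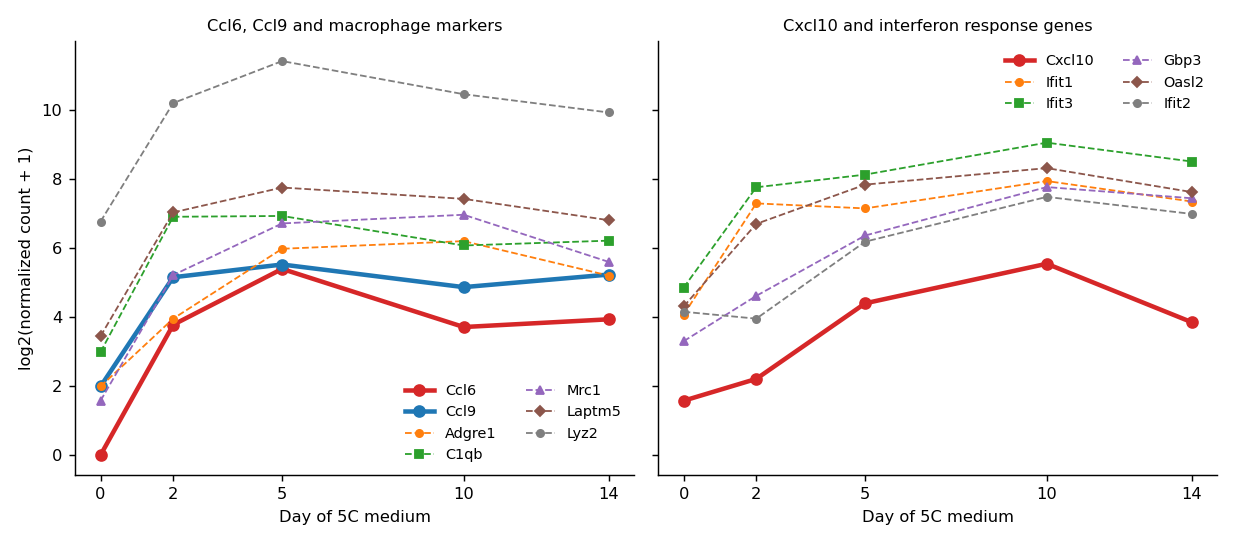
Normalized counts by day of 5C medium, as log2 of the value plus 1, of Ccl6 and Ccl9 with 5 macrophage genes (left) and of Cxcl10 with 5 interferon response genes (right), with 1 library per day. Ccl6, Ccl9, C1qb, Laptm5 and Lyz2 were highest on day 5, Adgre1 and Mrc1 on day 10, and Cxcl10 with Gbp3, Ifit1, Ifit2, Ifit3 and Oasl2 on day 10.

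Among 14 NF-kB subunits and inhibitors, 2, 3, 5 and 4 were over 2-fold above day 0 on days 2, 5, 10 and 14 and 0, 0, 1 and 1 were below, with a median log2 change of 0.03, 0.19, 0.59 and 0.32, or 0.03, 0.11, 0.59 and 0.26 with a gene at 0 on day 0 at its bound. These numbers above lie near the background of 15.2%, 20.2%, 28.7% and 24.5% of all genes. Bcl3, a nuclear IkB-family protein, had 13.9, 139, 157, 114 and 154 normalized counts. Nfkbiz, of the same family, had 52.5, 195, 141, 149 and 238, Nfkb1 had 83.1 on day 0 and 236 on day 10, and Ikbkb had 110 and 233 on days 0 and 14. Nfkbib went the other way, from 152 to 52.1 on day 10.

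Of 10 kept NF-kB targets that are no chemokines, 4, 6, 6 and 6 were above and 0, 1, 2 and 2 below, with a median log2 change of 0.61, 1.96, 2.08 and 1.72, the first of which was 0.37 with a gene at 0 on day 0 at its bound. The adhesion molecules Icam1 and Vcam1 had 83.6 and 99 normalized counts on day 0 and 542 and 378 on day 5. The acute-phase gene Saa3 had 0.99 on day 0 and 464 on day 10, and Irf1 had 37.6 on day 0 and 189 on day 10. Ptgs2, encoding the cyclooxygenase COX-2, went from 373 on day 0 to 27.8 on day 10.

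The list of inflammatory cytokines and their receptors kept 9 genes, namely Il1rn, Tnfrsf1a, Tnfrsf1b, Il1r1, Il1rap, Tlr2, Tlr3, Tlr4 and Myd88. The cytokines Tnf, Il1a and Il1b were not kept, with at most 2.12, 7.63 and 1 expected counts. Of the 9 kept genes, 4, 6, 6 and 5 were over 2-fold above day 0 on days 2, 5, 10 and 14 and none below. Their median log2 change was 0.27, 2.01, 1.14 and 1.21. The interleukin-1 receptor chains Il1r1 and Il1rap had 34.6 and 22.8 normalized counts on day 0, 39.8 and 52.5 on day 2, and 548 and 890 on day 10. Tlr3 had 4.95 on day 0 and 71.4 on day 10. The tumour necrosis factor receptors Tnfrsf1a and Tnfrsf1b were highest on day 5, with 988 and 98.9.

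For the 7 ligands that reached 100 expected counts in any library, the genes most alike in profile were sought among 8256 such genes, by the distance between centred log2 values over the 5 libraries. Such a likeness over 5 points is a description only. For Ccl2 they were Smox (distance 0.21), H19 (0.29) and Spry4 (0.32), all highest on day 5. For Ccl7 they were Ctla2a (0.43), Cebpb (0.47) and Cdk2ap2 (0.48), highest on day 2, and for Ccl11 they were Ugt1a6b (0.42), Reg3g (0.89) and Col26a1 (0.89), all at 0 on day 0.

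Genes near Cxcl12 were Myo6 (0.18) and Shroom3 (0.19), each lowest on day 2. The genes nearest Cxcl1 were Gpr153 (0.35), Nol3 (0.37) and Rgma (0.39), and those nearest Cxcl5 were Armh4 (0.23), Oplah (0.31) and Nlrc5 (0.37). Cxcl14 was nearest to Gapdh (0.34), Tpm1 (0.38) and Htr1b (0.41). Gapdh, a glycolytic enzyme often taken as a reference gene, had 24212, 7110, 4439, 1833 and 2896 normalized counts here.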

How the data were processed

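RNA of MEFs before 5C medium (day 0) and on days 2, 5, 10 and 14 was sequenced from 1 TruSeq RNA library per time point, a kit that does not mark strand. The authors deposited RSEM's expected counts per gene, which are estimated read numbers with no scaling. The authors deposited TPM values beside them, scaled by gene length to a fixed sum per library, and FPKM values, which were not used. The submitters' processing notes name Bowtie, RSEM and mm10, and versions, annotation and filters are not given in the sources used here. Effective lengths equalled lengths in the deposited values for every gene.

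Symbols and coordinates of 27247 of 27729 genes came from GENCODE M21 (GRCm38). Expected counts were rounded to whole numbers for TMM factors (edgeR 4.0.16, R 4.3.3), which were between 0.808 and 1.19. Normalized counts are expected counts over the effective library size, brought to the geometric mean of all 5 sizes. Changes are log2 ratios with a pseudocount of 1, so they understate low genes, and ratios are of the counts without it. The 13346 genes that reached 10 expected counts in any library were kept. Depth was between 2253748 and 3890334 counts, and intervals, from scipy 1.17.1, cover counting error only, since reads carried no molecular identifiers. No test between time points was possible. The threshold was 2-fold.

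The ligands and gene lists were chosen with earlier results of these data known. Named genes were, beside markers that check a label, the 10 ligands, the receptors that bind them, up to 5 genes per list with the largest change among those with 100 or more counts, other ligands with 10 or more counts, and the 3 genes nearest in profile, of which some are not reported here. Alternatives were size factors of DESeq2 1.42.0, upper-quartile factors, total counts, TPM, TMM without the day 2 library, pseudocounts of 0 and 5, a 4-fold threshold and other filters. Before use the calls were checked on simulated counts with counting error alone and 4-fold changes in well-counted genes of the last library. That check set no 2-fold change and no change in genes with few counts.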

Additional observations from a re-analysis of the deposited data

How the results depend on the processing

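Of 352 recomputed changes of single ligands, 306 either stayed inside their counting interval or stayed under 2-fold with the same sign. The other 46 did neither, and 0 changed direction past 2-fold. All 46 arose with TPM, total counts or a pseudocount of 5, and most of them with TPM. The DESeq2 and upper-quartile factors, TMM without the day 2 library and a pseudocount of 0 added none, so the pooled number understates the dependence on TPM. With genes limited to 10 or more counts in every library, 3 ligands were above day 0 on each of the 4 days, in place of 6, 7, 7 and 7, since 4 ligands are then not counted. On day 10, 1 ligand in place of 2 was below day 0 both with TPM and with a 4-fold threshold, the ligand lost being Ccl7. The log2 change of the summed ligands was -0.07, 0.92, 1.09 and 1.21 per library total on days 2, 5, 10 and 14, and 0.19, 1.57, 1.71 and 1.65 with TPM. With TPM, listed genes other than the 10 ligands above day 0 on day 2 numbered 33 in place of 52, and those below numbered 7, 3, 4 and 5 in place of 3, 5, 10 and 9, and the median over all genes moves with that scale. Small changes under 2-fold turned direction with TPM for Ccl7 (day 14 against day 0, and day 2 to 5), Cxcl14 (day 2 to 5, also with total counts), Ccl6 and Cxcl1 (day 10 to 14). No paired analysis was possible because each time point has 1 library, and no library could be left out of a time point for the same reason. Without the day 2 library in the scaling, the counts of ligands called on days 5, 10 and 14 stayed within 1.5 times. Depth limits the receptors and the day 0 values of Ccl6, Ccl9, Ccl11 and Cxcl10.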

Other observations

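The other cell type lists moved in different ways. All 6 Schwann cell and glial markers were kept, and 3, 5, 6 and 6 were over 2-fold above day 0 on days 2, 5, 10 and 14, with Sox10, Gfap and Erbb3 reaching log2 changes of 7.97, 7.79 and 6.68. Of 11 fibroblast markers, 4, 4, 5 and 5 were above and 2, 1, 2 and 1 below, beside 15.2%, 20.2%, 28.7% and 24.5% of all genes above and 13.1%, 13.6%, 22.3% and 19.9% below. Those above included the matrix genes Lum and Dcn, with 23.8 and 102 normalized counts on day 0 and 1486 and 2989 on day 14. Of 3 kept endothelial markers, 1, 0, 1 and 0 were above and 1, 1, 2 and 2 below, and Kdr, the receptor of vascular endothelial growth factor, had 236 normalized counts on day 0 and between 3.58 and 6.43 later. Cxcl12 and Cxcl14 are both known products of stromal cells, and the part of these lists in their values was not tested.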
